A study of Mus musculus with 6 samples.

Results

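Genes listed as varying among substrains of the C57BL/6 mouse were read in brain RNA of mice lacking Pla2g2e and of wild-type controls. The question was whether the 2 groups differed at them, as mice of mixed strain background could. The 9 genes were Nnt, Cyfip2, Nlrp12, Entpd4, Wdfy1, Glo1, Alad, Ide and Fgfbp3, taken as every non-control probe that carries one of these names. They are 9 of 29608 gene names on the array and have 16 of its 39429 probes, and 15 of the 16 gave enough signal to be tested. The study hybridised 6 brain samples of male mice, 3 wild-type and 3 Pla2g2e-/-, all given as C57BL/6N in the labels. Pla2g2e encodes a secreted phospholipase A2. Titles call all 6 samples sham-operated, while the treatment text attached to each names a middle cerebral artery occlusion of 60 min, and the labels do not settle which holds. Age, the allele of Pla2g2e, the source of the wild-type mice and any backcrossing are not given in the labels. It is also not stated whether each sample is a separate animal, so the tests rest on sample-to-sample spread that could be partly or wholly technical. No mouse of another substrain was measured here, so the levels below compare these 2 groups and cannot by themselves assign a substrain.

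C57BL/6 mice have been bred as separate colonies for decades, chiefly the J and N lines, and each colony has fixed mutations of its own. Nnt encodes the mitochondrial transhydrogenase that makes NADPH from NADH, and C57BL/6J mice carry a deletion inside the gene that C57BL/6N mice lack. Cyfip2, a subunit of the WAVE complex that drives actin branching, carries a coding change in C57BL/6N, and Nlrp12, a NOD-like receptor that restrains inflammatory signalling, carries one in C57BL/6J. Ide and Fgfbp3 lie close together in a stretch whose copy number has varied within C57BL/6J stocks, and the copy number of Glo1 and Alad varies among inbred mouse strains. For Glo1 and Alad no difference among C57BL/6 substrains is given here, nor is a particular one for Entpd4 or Wdfy1. A change of copy number or of transcript level can move an array signal. A change of 1 coding base outside the probe is not read by it, so the Cyfip2 and Nlrp12 probes report amounts of transcript and not these alleles. Whether any Nnt probe lies within the Nnt deletion is not annotated here, so whether these probes read the deletion was not tested.

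Each probe is a stretch of 60 bases, and what it reads depends on where it sits in the transcript. The last 30 bases are shown for the probes on which the results turn, 5′ to 3′ as the files give them, with the motif AATAAA, the usual signal for cleavage and addition of the poly(A) tail, in capitals where present. For the overlapping pair of Wdfy1 probes the shown end is the one not shared, and capitals mark the 20 bases that each has alone. The Nnt probe is the brightest of that gene, and both Alad probes are shown because they differed in sign. The Nlrp12 probe had the largest difference as reported, though not under every other setting.
Nnt A_55_P2144285 (chr13:120124335-120124394, minus strand, mm9): atctgagtAATAAAtgagttcataaaagtg
Nlrp12 A_55_P1971373 (chr7:3221511-3221570, minus strand): acctttattatattaaattcaaacgctatc
Alad A_55_P1955072 (chr4:62172559-62172618, minus strand): tgccctgctaaaacatggacttggcaacag
Alad A_55_P2037737 (chr4:62169463-62169522, minus strand): ccactaagtatccctggcctcacccaccta
Entpd4 A_52_P582907 (chr14:69967249-69967308, plus strand): taatccgcagcaagtatgggtggctgtcaa
Wdfy1 A_55_P2070686, bases 1 to 30 (chr1:79723062-79723121, minus strand): ACCCCTCCTCCCATTGTTAGctgctttgaa
Wdfy1 A_52_P511821, bases 31 to 60 (chr1:79723042-79723101, minus strand): tttatcctaaAATCCAAGAACCTCTGTGTC
AATAAA was present in 1 of the 16 member probes and in 12.6% of all 39429 probes, and its reverse complement TTTATT in 1 of 16 and 4.03%. On either strand the motif was in 2 of 16 and 16.2%. A match describes these letters only. Coordinates are those of the files, on mm9, and the part of the gene that each probe covers is not annotated here.

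None of the 15 tested probes differed between knockout and wild type in limma's test with Benjamini-Hochberg adjustment over 31954 probes, where 0 probes (0%) passed. The smallest adjusted p of a member was 0.284 and that of any probe 0.197. At an unadjusted p under 0.05 there were 2 of the 15, 1 higher and 1 lower in knockout, beside 12.1% of all tested probes (3.06% higher and 9.03% lower). Lower probes made up 74.7% of these over all genes, but 28.5% after median centring, under which the median over all probes was 0.11, and 46.7% after quantile normalization. The 3 knockout values lay all above the 3 wild-type values in 4 of the 15 and all below in 2, beside 7.47% and 11.9% of all tested probes. The median difference, knockout minus wild type, was 0.00 on the log2 scale over the member probes and -0.01 over all tested probes. The median size of the difference regardless of sign was 0.11 for both. The 95% interval of the difference lay within 1.5-fold in both directions for 12 of the 15 member probes, and for 70.9% of all tested probes. The 3 exceptions were the Nlrp12 probe, the Entpd4 probe and the dimmer Alad probe.

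**Figure D1:**
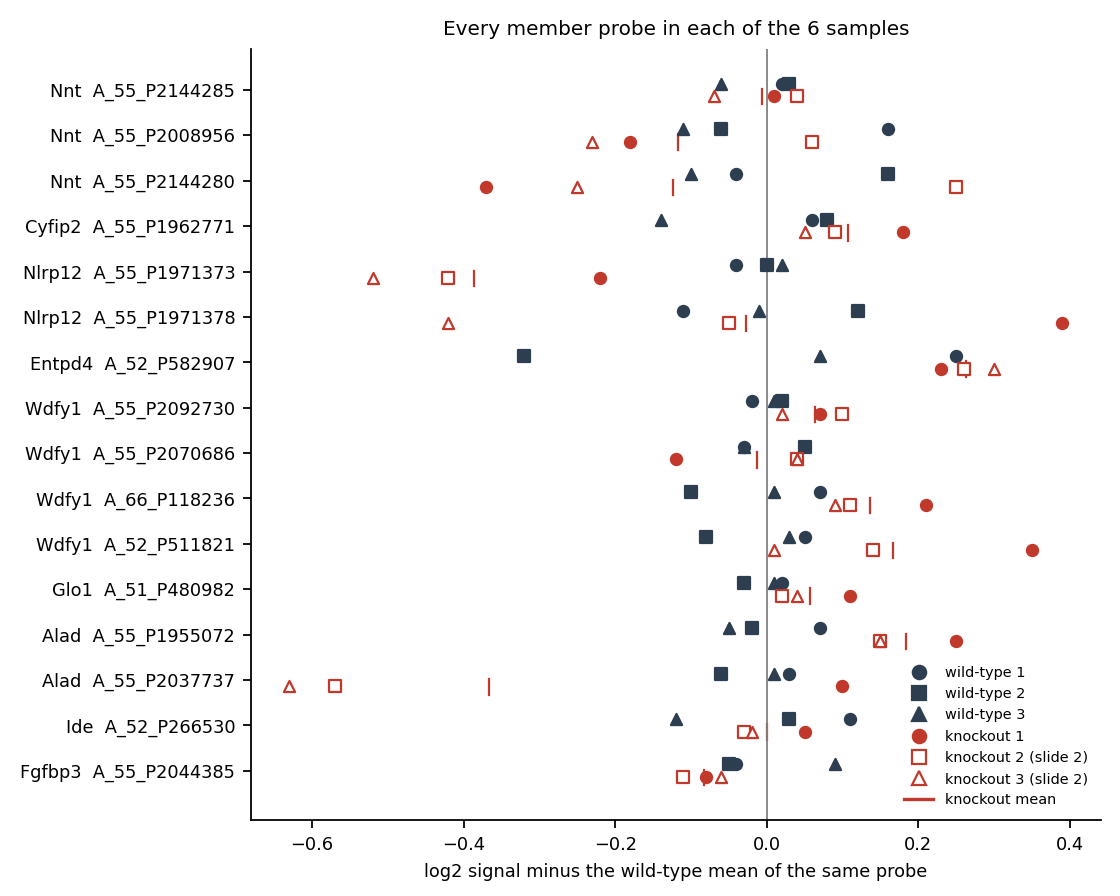
Log2 signal of each of the 16 member probes in each sample, minus the wild-type mean of that probe. Dark symbols are the wild-type samples, red symbols the knockout samples, open symbols the 2 arrays on slide 2, and short red lines the knockout means. The bright Nnt probe overlaps between groups, whereas the upper Nlrp12 probe lies below the wild-type values in all 3 knockout samples.

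**Figure D2:**
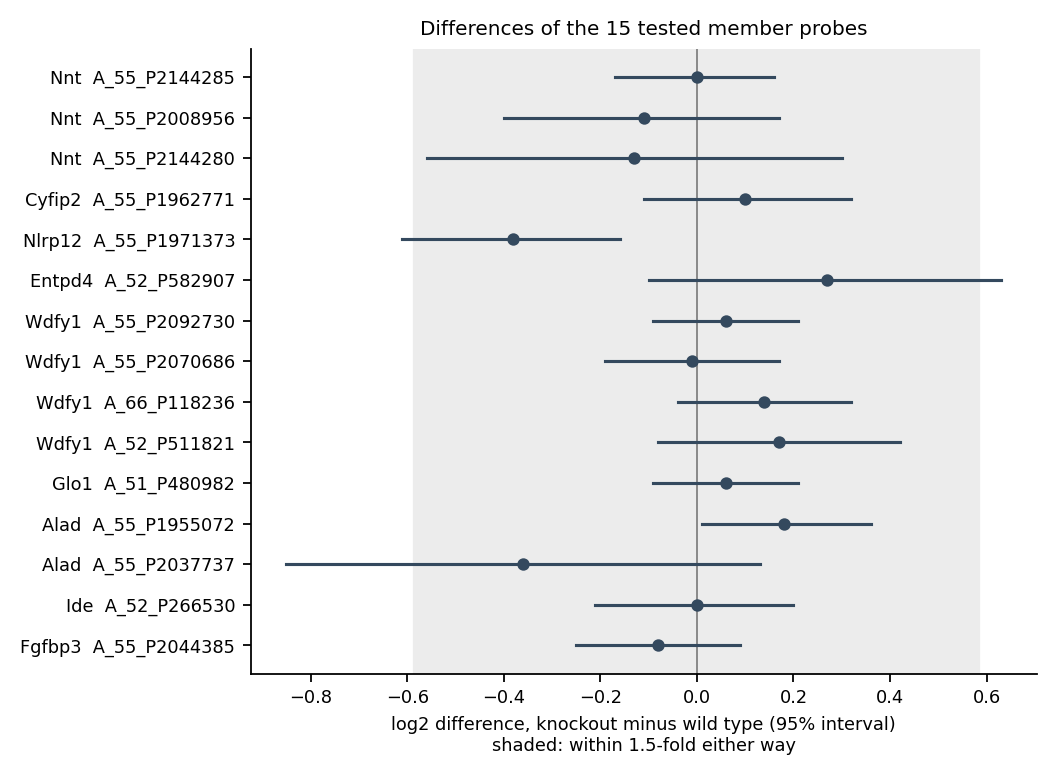
Difference of each of the 15 tested member probes (dots, log2, knockout minus wild type) with its 95% interval (lines). The shaded band marks 1.5-fold either way, and 3 intervals, those of Nlrp12, Entpd4 and the dimmer Alad probe, reach past it.

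Wild-type 1, 2 and 3 and knockout 1 shared a slide and knockout 2 and 3 lay on another, so slide and genotype were partly confounded. Of the 43020 non-control spots per array, 82.0% to 83.5% were well above background on the shared slide. In knockout 2 and 3, on the other slide, these were 85.3% and 84.7%, and 0 spots were saturated on any array. Correlations between arrays over tested probes ran from 0.991 to 0.998. Each member probe is printed once, so its precision rests on the number of arrays. Among the 399 probes printed 10 times on each array, the median SD between spots was 0.22 (log2) for the 123 probes below a level of -5, 0.06 for the 80 between -5 and -2 and 0.05 for the 196 above. All levels are log2 signals relative to the array's own 75th percentile. Probes bind with different strength, so levels are compared only within a probe, and a sum of signals over markers weights each by the brightness of its probe. Markers of the labelled tissue were present: all 6 of neurons, all 5 of astrocytes and all 4 of oligodendrocytes were well above background on all 6 arrays. Of 3 liver markers Ttpa alone was so in both groups, and Alb, the albumin gene, on no array. Of 3 muscle markers Myh1 and Acta1 were so, and Ckm on no array.

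Nnt, the mitochondrial transhydrogenase, gave nearly equal signals in both groups. Its bright probe, at percentile 84.2 of tested probes by mean signal, read 1.89, 1.90 and 1.81 in wild-type 1, 2 and 3 and 1.88, 1.91 and 1.80 in knockout 1, 2 and 3. Values of both groups interleaved, and no sample stood apart. The difference was 0.00 ± 0.07 (SE, n = 3 each; 0.998-fold, 95% interval 0.890 to 1.12), with an adjusted p of 0.987 in limma. That interval lies well inside 1.5-fold either way. Whether the groups share the Nnt allele was not tested, since it is not annotated whether this probe lies within the deletion described above.

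The other 2 Nnt probes are assigned to other transcripts and were dimmer. A_55_P2008956 (chr13:120142585-120142644) read -4.99, -5.21 and -5.26 in wild type and -5.33, -5.09 and -5.38 in knockout, a difference of -0.11 ± 0.12. A_55_P2144280 (chr13:120123318-120123377), near the floor of detection at percentile 6.93, read -7.65, -7.45 and -7.71 and then -7.98, -7.36 and -7.86, a difference of -0.13 ± 0.18. Groups overlapped at both probes, and knockout 2 was the highest sample at the second. Of 14 genes of the mitochondrial NADPH and peroxide system that Nnt feeds, 0 had an unadjusted p under 0.05. Among them 11 were higher and 3 lower in sign, with a median difference of 0.05, where 12.4% of all genes (taken by their brightest tested probe) had such a p. Sod2, the mitochondrial superoxide dismutase, had the largest difference of that list at 0.12 ± 0.07 with no overlap of groups, as 19.9% of all genes had, and Idh2, which also makes mitochondrial NADPH, differed by 0.12 ± 0.08. Gsr, Txnrd2 and Prdx3, which use that NADPH to reduce glutathione, thioredoxin and peroxides, differed by 0.04, 0.04 and 0.07. The genes nearest to the Nnt probes were Paip1, whose product binds the poly(A)-binding protein, at 107 kb and Fgf10, a growth factor, at -553 kb. They differed by 0.02 ± 0.09 and 0.31 ± 0.25, and the groups overlapped at both.

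Ide and Fgfbp3, the members with a history of shared copy number change, both differed by less than 0.10. Ide, the protease that degrades insulin and amyloid beta, read -0.33, -0.41 and -0.56 in wild type and -0.39, -0.47 and -0.46 in knockout (chr19:37343642-37343701). All 3 knockout values lay inside the wild-type range, and the difference was 0.00 ± 0.08 (0.997-fold, 95% interval 0.867 to 1.15). Fgfbp3, a secreted protein that carries fibroblast growth factors, read -1.23, -1.24 and -1.10 in wild type and -1.27, -1.30 and -1.25 in knockout (chr19:36992118-36992177). Its knockout values were all lower than its wild-type values, by -0.08 ± 0.07 (0.944-fold, 95% interval 0.838 to 1.06). Wild-type 3 was the highest sample, and the other 5 lay close together. Tnks2, which encodes a tankyrase and is the nearest gene on 1 side of Fgfbp3, differed by 0.01 ± 0.07, and Btaf1, a regulator of TATA-binding protein on the other side, by 0.16 ± 0.07 without overlap. The gene nearest to Ide, 4931408D14Rik, differed by -0.17 ± 0.11, and Kif11, a mitotic kinesin on the other side, by -0.24 ± 0.30, with groups overlapping at both. Of 7 peptide-degrading enzymes other than Ide, 0 had an unadjusted p under 0.05, and Ece2, which processes endothelin, had the largest difference at -0.41 ± 0.25. In the list of growth factor genes beside Fgfbp3, 1 of 8 did, beside 12.4% of all genes. It was Fgfbp1, the founding member of the carrier family. It differed by -0.93 ± 0.18, the groups did not overlap, and its adjusted p in limma was 0.243. Its level was low, at -4.69 in wild type and -5.62 in knockout.

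Glo1 and Alad are the other members whose copy number is known to vary, in their case among inbred mouse strains. Glo1, the glyoxalase that clears methylglyoxal, read 2.08, 2.03 and 2.07 in wild type and 2.17, 2.08 and 2.10 in knockout (chr17:30729951-30730010). The groups did not overlap, although knockout 2 and wild-type 1 both rounded to 2.08, and the difference was 0.06 ± 0.06 (1.04-fold, 95% interval 0.938 to 1.16). Knockout 1 was the highest sample. The gene nearest to Glo1, 1700097N02Rik at 29.4 kb, differed by 0.15 ± 0.12, and Btbd9, the nearest on the other side at -377 kb, by 0.08 ± 0.08. Of 8 further genes of methylglyoxal handling, 1 had an unadjusted p under 0.05, beside 12.4% of all genes. It was Aldh1a1, a retinaldehyde and aldehyde dehydrogenase, which differed by -0.42 ± 0.09 without overlap (adjusted p = 0.261 in limma). Hagh, the second enzyme of the glyoxalase pathway, differed by 0.10 ± 0.09.

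The probes of Alad, which joins 2 aminolevulinate molecules in haem synthesis, differed in sign. The brighter one, A_55_P1955072, read -0.46, -0.55 and -0.58 in wild type and -0.28, -0.38 and -0.38 in knockout. All knockout values were higher, by 0.18 ± 0.07 (1.14-fold, 95% interval 1.01 to 1.28), with an adjusted p of 0.394 in limma. The dimmer one, A_55_P2037737, read -4.52, -4.61 and -4.54 in wild type but -4.45, -5.12 and -5.18 in knockout. Knockout 1 was the highest of all 6 there while knockout 2 and 3, both on slide 2, were the lowest. Its difference was -0.36 ± 0.20 over all samples, 0.11 on the slide that holds both genotypes, and -0.59 without knockout 1, when each genotype has a slide to itself. Slide and genotype cannot be told apart for that last value. For the brighter probe the value on the shared slide was 0.25. Averaged over both probes Alad differed by -0.09.

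Hdhd3 and Pole3, the nearest genes on either side of Alad, differed by 0.00 ± 0.08 and -0.06 ± 0.09. Of 8 other genes of haem synthesis 0 had an unadjusted p under 0.05, beside 12.4% of all genes, and the median was 0.04. Alas1, the first and limiting enzyme in most tissues, differed by 0.17 ± 0.08 without overlap, and Alas2, its form in red cells, by -0.59 ± 0.97, the largest of that list. The summed linear signal of 6 red cell markers, in multiples of each array's 75th percentile, ran from 4.97 to 19.4 in wild type and from 1.69 to 24.4 in knockout, and 5 of these 6 markers exceeded background throughout both groups. The part of blood in the Alad values was not tested. Fewer cells of a type and less RNA per cell cannot be told apart in such bulk samples.

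As reported, Nlrp12 had the largest difference among the members, beside -0.36 for the dimmer Alad probe. The order depended on the setting: without knockout 1 that Alad probe differed by -0.59, whereas Nlrp12 went no lower than -0.46 in any setting. Its probe A_55_P1971373 read -6.37, -6.33 and -6.31 in wild type and -6.55, -6.75 and -6.85 in knockout. The 3 wild-type values agreed within 0.06 and all knockout values were lower, with knockout 1 nearest to wild type. The difference was -0.38 ± 0.09 (0.767-fold, 95% interval 0.656 to 0.898), with an adjusted p of 0.284 in limma. The signal was dim, from 24.8 to 26.0 units in wild type and 19.0 to 23.5 in knockout before scaling, though well above background on all 6 arrays. The median SD between spots of a probe at that level was 0.22. On the slide with both genotypes the difference was -0.22, and after normexp background correction it was -0.15. The second Nlrp12 probe, A_55_P1971378 (chr7:3235181-3235240), was well above background only on knockout 1. It read -8.93, -8.70 and -8.83 in wild type and -8.43, -8.87 and -9.24 in knockout, and it was not tested.

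Nlrp12 is expressed in neutrophils and monocytes, and markers of those cells were read beside it. All 7 of these markers were well above background on all arrays, and 6 were lower in sign in knockout. Among them 0 had an unadjusted p under 0.05, beside 12.4% of all genes. Their summed signal was 28.7, 22.5 and 38.1 in wild type and 23.3, 22.0 and 22.4 in knockout, of which Csf3r, the receptor of a granulocyte growth factor, made up 75.6% to 92.8%. Without Csf3r the sum of the other 6 was 6.25, 1.62 and 9.29 in wild type and 4.17, 2.33 and 2.26 in knockout, so the groups overlapped and wild-type 2 was the lowest sample. Markers of 3 brain regions or coverings were each lower in sign at 6 of 6 genes. Those of striatum summed to 11.8, 8.26 and 27.5 in wild type and 6.76, 8.58 and 7.86 in knockout. Those of meninges summed to 8.33, 6.27 and 11.1 and then 4.55, 5.37 and 7.08, and those of choroid plexus to 18.9, 4.89 and 23.9 and then 14, 7.66 and 7.85. Wild-type 3 was the highest sample for all 3 lists, wild-type 2 was the lowest wild-type sample in each, and the groups overlapped in each. Without Mgp, its brightest marker, the meninges sum was 4.35, 3.88 and 6.12 in wild type. In knockout it was then 2.67, 3.43 and 3.69, so the groups no longer overlapped. Without Ppp1r1b and Ttr the striatum and choroid plexus sums still overlapped. Single genes without overlap, all lower, numbered 2 of striatum, 3 of meninges and 1 of choroid plexus, beside 12.3% of all genes. At an unadjusted p under 0.05 these were 1, 2 and 1, beside 9.35%. The part of these tissues in the Nlrp12 difference was not tested. The gene next to Nlrp12, D7Ertd143e, differed by -0.21 ± 0.07 without overlap. Its probe (chr7:3220957-3221016) lies at -7.39 kb from the middle of the Nlrp12 probes. It is much closer to the tested Nlrp12 probe (chr7:3221511-3221570), and whether both read the same transcript was not tested. Myadm, a myeloid membrane protein gene on the other side, differed by 0.13 ± 0.09. Among 14 NOD-like receptor and inflammasome genes, 4 were higher and 10 lower in sign, with a median of -0.17. At an unadjusted p under 0.05, 1 was higher and 2 lower, beside 3.02% and 9.35% of all genes, and groups did not overlap at 1 higher and 4 lower, beside 7.66% and 12.3%. Casp1, the inflammasome protease, differed by 0.54 ± 0.13, and Nlrp1a and Nlrp6, both sensors of that family, by -0.44 ± 0.17 and -0.22 ± 0.07. The groups were apart at these 3 genes, and their adjusted p in limma was 0.275, 0.399 and 0.369. Nlrp1a and Nlrp6 were dim, at -6.19 and -5.30 in wild type and -6.63 and -5.51 in knockout. At such levels the median SD between spots of a probe was 0.22. Nlrc4, the flagellin-responsive sensor, had the largest difference at 0.60 ± 0.49. Wild-type 3 read -8.04 there, against -6.12 and -6.49 in the other wild-type samples and -6.13, -6.38 and -6.34 in knockout. Over 6 arrays, the genes whose levels followed the Nlrp12 probe most closely among 30496 probes were 2610027K06Rik, Bgn and Zic5, with Pearson's r of 0.997, 0.994 and 0.993. These values describe 6 points that share slides and groups.

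Cyfip2, which couples Rac to actin through the WAVE complex, was among the brightest genes of the tissue, at percentile 98.3 of tested probes. It read 5.15, 5.17 and 4.95 in wild type and 5.27, 5.18 and 5.14 in knockout (chr11:46007360-46007419). Wild-type 3 was the lowest sample and the rest lay close together with groups overlapping. The difference was 0.10 ± 0.09 (1.07-fold, 95% interval 0.927 to 1.25). Without wild-type 3 it was 0.03. Of 12 genes of the WAVE complex and its regulators 0 had an unadjusted p under 0.05, beside 12.4% of all genes, and the median was -0.01. Cyfip1, the close relative that also binds the fragile X protein, differed by -0.02 ± 0.08, Nckap1, its partner in the complex, by -0.01 ± 0.07, and Wasf2, 1 of the WAVE proteins, by -0.10 ± 0.07, the largest of that list. Adam19 and Fndc9, the nearest genes, differed by -0.22 ± 0.12 and -0.10 ± 0.09.

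Entpd4 encodes a nucleotide-hydrolysing enzyme of the Golgi and lysosome. Its probe read -3.01, -3.58 and -3.19 in wild type and -3.03, -3.00 and -2.96 in knockout. Knockout values were tightly grouped, wild-type 1 lay among them, and wild-type 2 was well below. The difference was 0.27 ± 0.15 (1.20-fold, 95% interval 0.934 to 1.55), and without wild-type 2 it was 0.11. The probe is listed for transcripts shared with Entpd4b, a near-identical neighbouring copy, so signal of the 2 genes could not be separated. The probe named Entpd4b (chr14:69984685-69984744), which is listed for the same transcripts and is not 1 of the 16, read 2.72, 2.69 and 2.67 in wild type and 2.65, 2.87 and 2.84 in knockout, a difference of 0.09 ± 0.08. There knockout 1, on the shared slide, was the lowest sample. On the other side of Entpd4, Synb, which encodes a syncytin, differed by 0.13 ± 0.18.

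Of 10 other genes that break down extracellular or luminal nucleotides, 3 were higher and 1 lower at an unadjusted p under 0.05, beside 3.02% and 9.35% of all genes. Entpd3, a surface enzyme of neurons, differed by 0.34 ± 0.08 (adjusted p = 0.282 in limma), Entpd2 by 0.28 ± 0.11 and Entpd7 by 0.29 ± 0.11. Entpd7 was dim, at -6.75 in wild type and -6.47 in knockout, and its groups overlapped. At that level the median SD between spots of a probe was 0.22. Enpp1, which makes pyrophosphate, differed by -0.34 ± 0.12, and Nt5e, the surface enzyme that makes adenosine, had the largest difference at -0.48 ± 0.23.

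Wdfy1, an endosomal protein with a FYVE domain that binds phosphoinositides and takes part in Toll-like receptor signalling, had 4 probes. The brightest, A_55_P2092730 (chr1:79698903-79698962), read 1.64, 1.68 and 1.67 in wild type and 1.73, 1.76 and 1.68 in knockout. The groups did not overlap, although knockout 3 and wild-type 2 both rounded to 1.68, and the difference was 0.06 ± 0.06 (1.04-fold, 95% interval 0.942 to 1.16). A_66_P118236 (chr1:79699969-79700028), listed for the same transcript, read -3.29, -3.46 and -3.35 and then -3.15, -3.25 and -3.27, also without overlap, a difference of 0.14 ± 0.07. The 2 overlapping probes shown above share 40 bases. A_55_P2070686 read -2.32, -2.24 and -2.32 and then -2.41, -2.25 and -2.25, a difference of -0.01 ± 0.07. A_52_P511821 read -6.21, -6.34 and -6.23 and then -5.91, -6.12 and -6.25, a difference of 0.17 ± 0.10. On the slide with both genotypes, where knockout 1 is the only knockout, this last difference was 0.35. After normexp background correction it was -0.01. Knockout 1 was the lowest of the 6 samples at A_55_P2070686 and the highest at A_52_P511821, although both probes target nearly the same stretch. A_52_P511821 was dim, at a level where the median SD between spots of a probe was 0.22. Ap1s3, an adaptor subunit gene next to Wdfy1, differed by 0.22 ± 0.09 without overlap, and Mrpl44, a mitochondrial ribosomal protein gene on the other side, by -0.04 ± 0.09. Of 8 related FYVE and Toll-like receptor genes 0 had an unadjusted p under 0.05, beside 12.4% of all genes. Tlr4 had the largest difference of these at -0.20 ± 0.11.

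Within 1 Mb of the members' probes lay 155 named genes with a tested probe, of which 71 were higher and 84 lower in sign, with a median of -0.02 beside -0.01 over all genes. Adjusted over all probes 0 were called in limma. At an unadjusted p under 0.05 there were 18, 3 higher and 15 lower, beside 12.4% of all genes (3.02% higher and 9.35% lower). Groups did not overlap at 12 higher and 19 lower neighbours, beside 7.66% and 12.3% of all genes. By member, the median ran from -0.10 for 11 genes near Cyfip2 to 0.01 for 19 genes near Ide. Differences of the largest size lay on both sides of 0. Near Alad, Orm2, an acute phase protein gene, differed by -1.04 ± 0.34, but only 1 of its 3 knockout arrays was well above background. Mup18, Mup19 and Mup20, also near Alad and coding for major urinary proteins, differed by 1.00 ± 0.88, 0.97 ± 0.77 and 0.91 ± 0.71. Wild-type 3 was the lowest sample at all 3, at -5.58, -4.80 and -7.28. Near Glo1, Tff3, a trefoil peptide gene, differed by 0.85 ± 0.48, with 2 of 3 wild-type arrays well above background. Near Nlrp12, Pira7, of the paired immunoglobulin-like receptors of myeloid cells, differed by -0.99 ± 0.47, and Pira11 and Lilra6 of the same cluster by -0.73 ± 0.25 and -0.74 ± 0.26. These were dim, at -6.16, -7.14 and -4.88 in wild type and -7.15, -7.87 and -5.63 in knockout. Below a level of -5 the median SD between spots of a probe was 0.22. Genes of the Mup and Pira families are close copies of each other, so their probes may share signal.

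**Figure D3:**
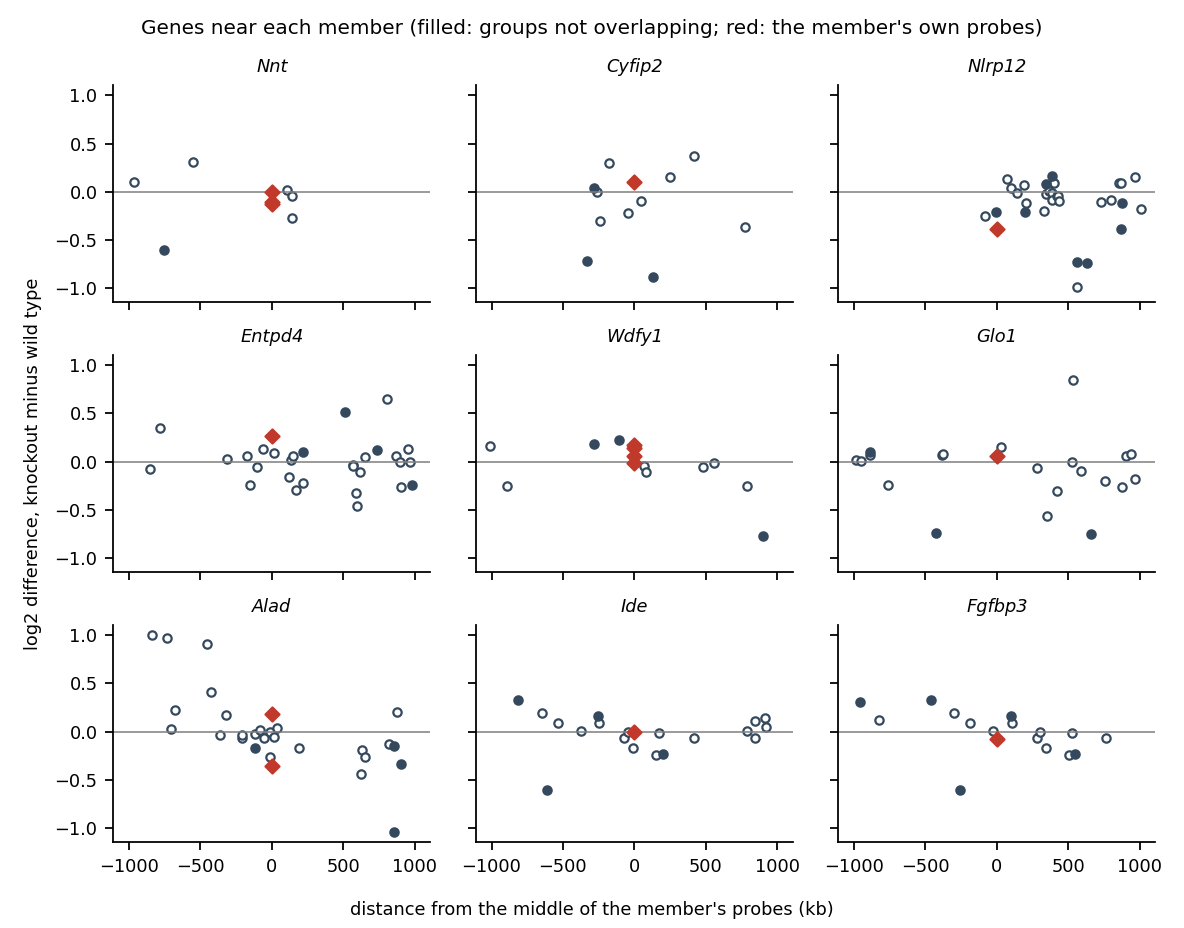
Difference (log2, knockout minus wild type) of each named gene within 1 Mb of a member, by distance in kb from the middle of the member's probes. Red diamonds are the member's own probes and filled circles genes whose groups do not overlap. The lowest point is Orm2 near Alad at -1.04 and the highest Mup18, also near Alad, at 1.00.

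Further genes with known differences among C57BL/6 colonies were read in the same way. Of 11 such genes 9 were tested, 1 was higher and 1 lower at an unadjusted p under 0.05, beside 3.02% and 9.35% of all genes, and the median was -0.16 beside -0.01. Groups did not overlap at 2 higher and 2 lower, beside 7.66% and 12.3% of all genes. Gabra2, a GABA receptor subunit whose brain expression is reduced in C57BL/6J by an intronic deletion, read 1.82, 1.81 and 1.93 in wild type and 1.70, 1.76 and 1.62 in knockout. Its groups did not overlap, and the difference was -0.16 ± 0.07 (adjusted p = 0.441 in limma). Mmrn1, which encodes multimerin, differed by -0.16 ± 0.42, with 2 of 3 knockout arrays well above background. Dock2, duplicated in part in a C57BL/6N stock, differed by 0.39 ± 0.15 without overlap (adjusted p = 0.395 in limma), at a low level of -6.14 and -5.75. Plk1, a mitotic kinase, differed by -0.28 ± 0.09. Crb1 and Zp2 were not tested since neither group was well above background on all of its arrays.

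**Figure D4:**
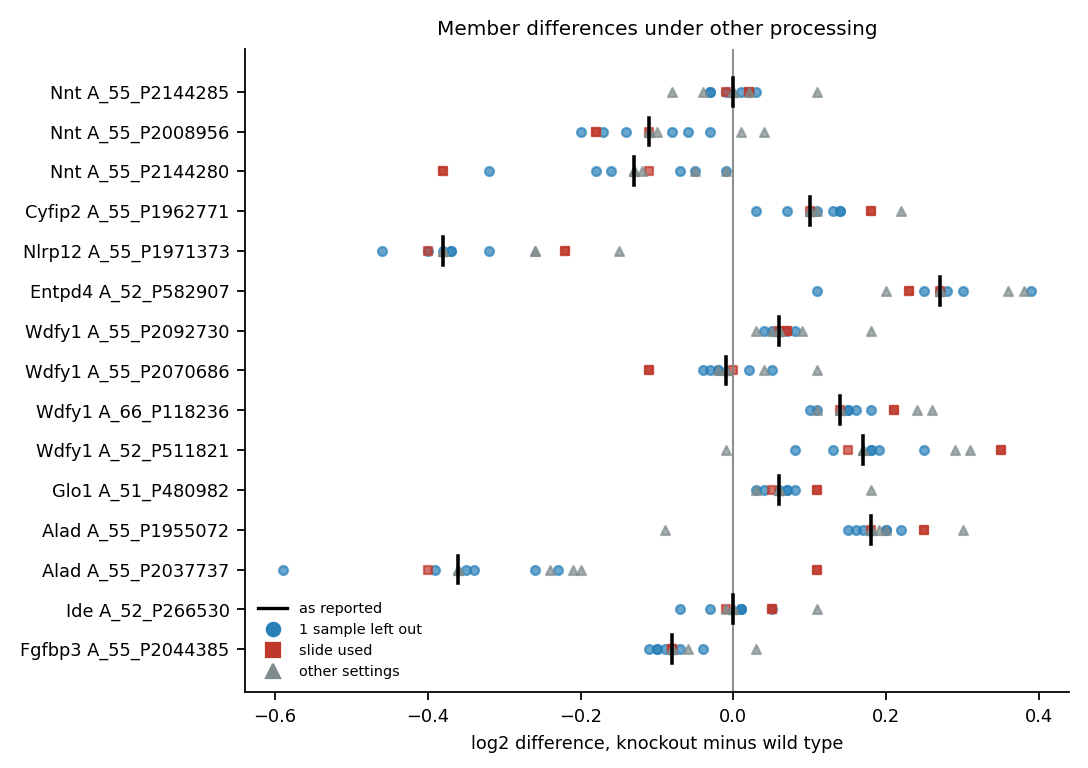
Differences of the 15 tested member probes (log2, knockout minus wild type) as reported (black bars) and under 18 other settings. Blue circles leave out 1 sample, red squares use the slide as a block or a single slide, and grey triangles are other settings. The dimmer Alad probe spans -0.59 to 0.11, while the bright Nnt probe stays between -0.04 and 0.11. The point at -0.08 in its row is the mean over all 3 Nnt probes.

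Across 18 other ways of processing, shown in the plot of member differences under other settings, no member probe was called. The dimmer Alad probe came nearest, with an adjusted p of 0.0668 in limma without knockout 1, followed by Nlrp12 with 0.0907 in the same setting. In that setting 126 probes of all genes were called. Each genotype then has a slide to itself, so slide and genotype cannot be told apart for these values. The Nlrp12 probe was lower in all 18 settings, from -0.46 to -0.15.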

How the data were processed

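Brain RNA of 3 wild-type and 3 Pla2g2e-/- samples, grouped by their titles, was measured on 1-colour arrays from 200 ng of RNA (labels' protocols). Each deposited file holds spot intensity from Agilent Feature Extraction 12.1.1.1, per the file headers and the submitters' processing notes. The processed signal is background-subtracted and detrended, which leaves dim genes dependent on that correction. Spots flagged as non-uniform or population outliers (0 of them member spots) and 1377 control spots were left out. Flagged spots numbered 68 to 98 per array on the slide with both genotypes, but 314 and 530 in knockout 2 and 3 on the other slide. Log2 signals were centred on each array's 75th percentile, and spots of a probe averaged. The test took probes well above background throughout 1 or both groups, with at least 2 values in each (31954 of 39429). Groups were compared with limma 3.58.1 (lmFit, eBayes, two-sided) in R 4.3.3, with Benjamini-Hochberg adjustment at 0.05, tested on simulated data. An exact permutation test was not used, since 3 against 3 cannot go below the threshold. Intervals are 95% and come from the same fit.

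The members and lists were chosen with earlier results of these data known. Named genes are every member, the nearest named genes on both sides, the largest difference in each list, and the 3 genes most correlated with the member of largest difference. Others were named after their values were seen, including Idh2, Gsr, Txnrd2, Prdx3, Hagh, Alas1, Cyfip1, Nckap1, Casp1, Nlrp1a, Nlrp6, Entpd2, Entpd3, Entpd7, Enpp1, Pira7, Pira11, Lilra6, Orm2, Mup18, Mup19, Mup20, Tff3, Csf3r, Gabra2, Mmrn1, Plk1 and Entpd4b. Differences of all list genes and nearby genes were read only by the brightest tested probe of each gene. Marker sums used the brightest probe of each marker, tested or not. Alternatives covered scaling, background, filters, slide, replicate number, single samples and probes per gene. Values of a few genes are not reported here.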

Additional observations from a re-analysis of the deposited data

How the results depend on the processing

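The number of arrays, and for Nlrp12 and the dimmest Nnt probe the signal over background, limit these values. No member probe was called under any of the 18 alternatives. Of 258 member values under them, 26 changed sign and 27 moved by over 1 SD of the replicates, none of them a call. The causes of the changes below were not tested. How readily groups are apart depends on the number of samples, so counts without overlap are not comparable between settings of unlike size. Member probes with an unadjusted p under 0.05 numbered 2 as reported, 5 after median centring, 4 after quantile normalization, and 1 after normexp, with the slide as a fixed block, on the slide with both genotypes, with the replicate block, or over the mean of a gene's probes. Median centring moved the medians to 0.11 for members, 0.09 for genes near them and 0.12 for partner lists, as it moved all probes to 0.11. It gave 9365 probes of all genes without overlap and 17 partner genes with such a p, in place of 6200 and 11. With the slide as a fixed block 1680 probes, 10 nearby genes and 7 partner genes had an unadjusted p under 0.05, in place of 3863, 18 and 11. On the slide with both genotypes these were 1274, 6 and 7, with 14775 probes not overlapping. Leaving out 1 sample at a time gave 0 to 126 probes called after adjustment. The 126 came without knockout 1, when slide and genotype cannot be told apart. It also gave 2206 to 4769 probes with an unadjusted p under 0.05 and 7472 to 11631 without overlap. Of members 1 to 3 had such a p, of nearby genes 7 (without knockout 3) to 30 (without wild-type 2) and of partner genes 5 to 11, with 9 nearby and 5 partner genes without knockout 2 and 7 partner genes without wild-type 3. Replicate numbers were not used as pairs. Deviations of same-numbered samples from their group means correlated at -0.04, -0.15 and -0.10. The deviations of each group sum to 0, so these values cannot settle whether the samples were paired. With the replicate block 3334 probes had an unadjusted p under 0.05 and 0 were called.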
